A study of Mus musculus with 8 samples.

Results

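Fatty acid oxidation, ketogenesis and peroxisomes are covered here by a list of 55 genes, each looked up by its symbol in the authors' comparison of liver RNA. All 55 were among its 16133 genes. By the place and task of their products, 21 were grouped as mitochondrial, 20 as peroxisomal, 9 as microsomal or thioesterase genes, and 5 as genes of uptake and regulation. The liver came from METTL14Alb mice (KO), which the submitters label knockout and METTL14 LKO, and from METTL14f/f mice (WT), which carry the floxed gene without the deletion. METTL14 works with METTL3, and the pair writes N6-methyladenosine (m6A) into mRNA. Mice of both genotypes were given tunicamycin, an inhibitor of N-linked glycosylation that stresses the endoplasmic reticulum, at 2 mg/kg for 24 hours, so no values without tunicamycin are given here. Polyadenylated RNA was sequenced as input and after pull-down by an antibody to m6A, with 2 libraries for each genotype and kind. The ages of the mice, and whether libraries came from separate mice, are not stated in the labels, so the p-values cover no more than the spread among these libraries, which may be technical.

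Fatty acids enter mitochondria as carnitine esters and are shortened there by beta-oxidation, each round passing electrons through flavoproteins to the respiratory chain and ending in acetyl-CoA, which the liver can turn into ketone bodies for other organs. Peroxisomes shorten very long and branched acids that mitochondria take poorly, produce hydrogen peroxide in doing so, and import their enzymes with proteins called peroxins. In liver the nuclear receptor PPARA, bound to DNA with its partner RXR, switches on many genes of both organelles during fasting.

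Estimated totals were 12368130 to 12609474 reads in the KO input libraries, called KO A and KO B, and 13487533 to 16834627 in the WT input libraries, WT A and WT B. Normalized read counts below are counts divided by the size factor of their library. The header of the comparison does not name the numerator, and log2 changes are read as KO over WT for the following reason. Of 347 genes with a mean count of 100 or more whose value exceeded 2 in the authors' deposited table, m6A peaks were listed for 156 in KO but not in WT and for 0 in WT but not in KO. Of 403 such genes below -2, the numbers were 30 and 46, and of all genes tested 3130 and 257. The targeted gene, Mettl14, had 64.6 and 62.03 normalized reads in KO and 79.8 and 99.7 in WT, and its log2 change of -0.50 ± 0.41 (SE) in the authors' deposited table did not pass the test (DESeq2 adjusted p = 0.342) and turned to 0.32 in limma with total-count scaling. Of 8 hepatocyte markers, all expressed, 6 were lower and 1 higher in KO. Their median log2 change was -1.51 in the authors' deposited table, from -3.56 for Serpina1c to 0.64 for Apoa1. Of 6 bile duct cell markers 5 were higher, with sums of 3113 to 4098 normalized reads in KO and 637 to 773 in WT, where Cftr was at 0 in both libraries and Krt7 in WT B. Of 7 stellate cell or fibroblast markers 4 were higher, with sums of 5976 to 8434 in KO and 2951 to 3805 in WT. Of 6 macrophage markers 1 was higher and 2 were lower, and of 6 endothelial markers 0 were higher and 1 was lower. The macrophage sums of 3800 to 3967 in KO and 2299 to 3152 in WT rested on Cd68, the marker that was higher. Cd68 had 2023 and 2665 normalized reads in KO and 168 and 207 in WT. The lower ones were Clec4f, with 579 and 287 in KO and 1408 and 861 in WT, and Vsig4, with 116 and 69.7 in KO and 249 and 129 in WT. In bulk liver, fewer cells of a type and less RNA per cell cannot be told apart, and the part of these marker changes in the results below was not tested.

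Most of the 55 mRNAs were lower in KO liver. At an adjusted p under 0.05, 42 fell, 6 rose and 7 did not pass the test in the authors' deposited table. Over all 14257 genes tested there, 42.5% were called, 22.2% lower and 20.4% higher. Among genes with a mean of at least 1000 normalized reads, where most of the 55 lie, 58.4% of 2184 genes were lower and 11% higher, against 36 lower and 2 higher of 41 members at that level. Over the members the median log2 change in the authors' deposited table was -1.09, against 0.05 over all genes tested and -0.65 over the genes at a mean of at least 1000. The 8 hepatocyte markers had a median of -1.51 there. A fall of at least 2-fold passed the test for 30 members and such a rise for 3, where 12.6% and 14.9% of all genes did so. Both KO libraries lay below both WT libraries for 44 members and above them for 6, where 37% and 39.9% of all genes did so. At a mean of at least 1000 they lay below for 37 of 41 members and for 70.4% of all such genes.

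Counts by group were as follows. All 21 mitochondrial members fell, with a median log2 change of -1.53 in the authors' deposited table, though Cpt2 and Acads turned above 0 under total-count scaling. Of the 20 peroxisomal members 17 fell and 0 rose (median -1.17 in the authors' deposited table), and 15 of the 20 were below 0 under total-count scaling. The thioesterases Acot2, of mitochondria, and Acot4, of peroxisomes, both rose and were counted in the next group instead. Of the 9 microsomal or thioesterase members 2 fell and 4 rose (median 0.46 in the authors' deposited table). That median was 0.14 in limma without WT B. It was 0.05 with the thioesterases of mitochondria or peroxisomes (Acot2, Acot3, Acot4 and Acot8) left out. Of the 5 of uptake and regulation 2 fell and 2 rose (median 0.30 in the authors' deposited table, and -0.27 in limma without WT B). Differences between these groups were not tested. The choice of scaling sets where 0 lies. With libraries scaled to equal total reads, the median over all genes moved to 0.86 in limma, against 0.06 with the authors' size factors. The medians then became -0.71 for mitochondrial, -0.34 for peroxisomal, 1.29 for microsomal or thioesterase, and 1.30 for uptake and regulation members. In that fit 14 mitochondrial members were called lower and 0 higher, and 10 peroxisomal members were called lower and 2 higher, where 7.93% of all genes were lower and 58.3% higher. Leaving out a KO library ended the calls and moved the mitochondrial and peroxisomal medians little. Without KO A or without KO B, limma called 0 of 14178 genes, and at an unadjusted p under 0.05 it had 36 and 38 members lower and 3 and 4 higher. The mitochondrial median was -1.47 without KO A and -1.59 without KO B, and the peroxisomal median -1.10 and -1.23. Without WT A or without WT B it called 42 members lower in either case, and 8 and 4 higher, where 25.5% and 25.3% of all genes were lower and 27.5% higher in both.

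**Figure D1:**
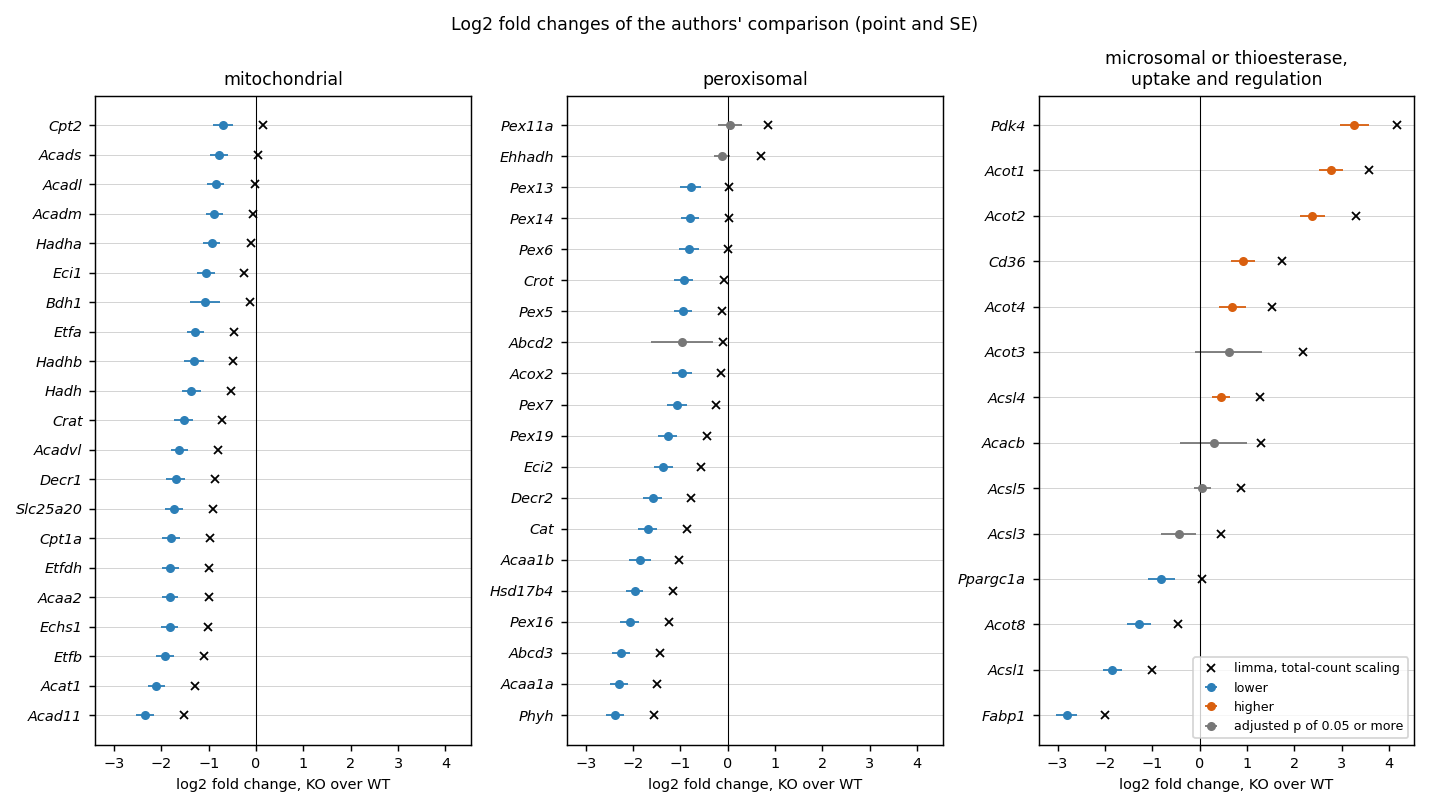
Log2 fold change (KO over WT) of each of the 55 genes in the authors' deposited table, as a point with its SE, coloured by call, with the limma value under total-count scaling as a cross. All 21 mitochondrial genes lie below 0 at the authors' size factors, 19 of them also with total-count scaling, while Pdk4, Acot1 and Acot2 lie furthest to the right.

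Promoters of the 55 genes were searched for the element that PPARA and RXR are known to bind, the half-site AGGTCA repeated after any 1 base, on both strands and with up to 2 mismatches. RefSeq sequence (GRCm38.p6, from 250 bases before to 50 after the start given in its promoter table) was at hand for 48 members. The element occurred in 8 of the 48 (16.7%), against 4.404% of 27018 genes and 3.88% of the genes tested, and with up to 1 mismatch in Fabp1 alone among the members. It stood in 6 of the 36 members that fell and in 2 of the 6 that rose. A match describes the letters only, not binding. The 4 matches that lie before the gene's RefSeq span are shown, with the element in capitals and on the gene's strand. They come from Fabp1 (chr6:71199762-71199874), Cat (chr2:103485321-103485381), Etfa (chr9:55512284-55512344) and Echs1 (chr7:140116468-140116528), which all fell. In Fabp1 and Etfa the element is read from the opposite strand.
Fabp1: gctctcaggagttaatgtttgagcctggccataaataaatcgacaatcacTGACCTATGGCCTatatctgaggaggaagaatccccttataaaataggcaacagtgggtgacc
Cat: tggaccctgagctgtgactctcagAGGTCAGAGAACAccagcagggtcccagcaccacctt
Etfa: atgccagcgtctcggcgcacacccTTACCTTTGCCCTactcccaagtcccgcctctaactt
Echs1: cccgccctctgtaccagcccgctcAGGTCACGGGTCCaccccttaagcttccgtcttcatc
The matches in Slc25a20 and Acox2 lie within transcribed bases. Those in Acot4 and Cd36, the genes that rose, lie before a start of the promoter table that is itself inside the RefSeq span of the gene.

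Entry into mitochondria starts with Cpt1a, which makes the carnitine esters and is the main point of control. Cpt1a had 3879 and 4258 normalized reads in KO A and KO B, against 15963 and 12408 in WT A and WT B. Both KO libraries were far below both WT libraries, and the KO mean was 28.7% of the WT mean. The log2 change of Cpt1a was -1.80 ± 0.19 (SE) in the authors' deposited table (DESeq2 adjusted p = 1.21e-19). The next steps fell too, by different amounts. Slc25a20, the carrier that brings carnitine esters across the inner membrane, had a log2 change of -1.73 in the authors' deposited table, and Crat, which makes short carnitine esters, one of -1.53. Cpt2, which returns the chain to coenzyme A inside, had the change nearest to 0 of the 21 mitochondrial members, -0.69 ± 0.21 in the authors' deposited table (DESeq2 adjusted p = 0.00328), and turned to 0.14 with total-count scaling in limma.

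Members at every step of the beta-oxidation cycle fell. Acadvl, the dehydrogenase that opens the cycle for the longest chains, had 3039 and 3445 normalized reads in KO and 10046 and 9910 in WT. Its KO mean was 32.5% of the WT mean, a log2 change of -1.62 ± 0.18 in the authors' deposited table (DESeq2 adjusted p = 6.09e-19). The dehydrogenases for shorter chains fell less. Acadl, Acadm and Acads, for long, medium and short chains, had log2 changes of -0.85, -0.88 and -0.78 in the authors' deposited table. Under total-count scaling Acads turned to 0.037 and Acadl and Acadm stood at -0.03 and -0.06. Acad11, a dehydrogenase of long chains that also acts on hydroxylated acids, had 1404 and 1698 normalized reads in KO and 8682 and 7123 in WT. That was the lowest log2 change of the members grouped as mitochondrial, -2.35 ± 0.19 in the authors' deposited table (DESeq2 adjusted p = 1.36e-31). The KO mean was 19.6% of the WT mean. Acad11 and Crat were grouped as mitochondrial but belong to more than 1 compartment. Without them the mitochondrial median was -1.36.

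Later steps of the cycle showed the same order of libraries. Echs1, the hydratase of short chains, had 1052 and 1196 normalized reads in KO and 3861 and 4119.5 in WT, a log2 change of -1.83 ± 0.18 in the authors' deposited table (DESeq2 adjusted p = 1.17e-21). Acaa2, the thiolase that splits off acetyl-CoA, had 3314 and 3495 normalized reads in KO and 11990 and 11950 in WT. Libraries of a genotype were close together for Acaa2, and its log2 change was -1.81 ± 0.17 in the authors' deposited table (DESeq2 adjusted p = 7.06e-25). Hadh, which oxidises hydroxyacyl-CoA of short chains, had a log2 change of -1.36 in the authors' deposited table. The subunits of the trifunctional protein for long chains, Hadha and Hadhb, had -0.94 and -1.30 in the authors' deposited table. Of the enzymes that prepare unsaturated chains, the isomerase Eci1 had -1.06 and the reductase Decr1 -1.69 in the authors' deposited table.

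Electron transfer out of the cycle and the ketone body genes were also lower. Etfb, a subunit of the electron transfer flavoprotein, had 2933 and 3374 normalized reads in KO and 13082 and 10899 in WT, a log2 change of -1.93 ± 0.19 in the authors' deposited table (DESeq2 adjusted p = 1.94e-23). Its partner subunit Etfa had a log2 change of -1.28 in the authors' deposited table. Etfdh, which hands the electrons to ubiquinone, had 1191 and 1293 normalized reads in KO and 4218 and 4486 in WT, a log2 change of -1.81 ± 0.18 in the authors' deposited table (DESeq2 adjusted p = 3.48e-22). Both KO libraries of Etfb and of Etfdh were far below both WT libraries. Acat1, which joins acetyl-CoA on the way to ketone bodies, had 832.8 and 844.6 normalized reads in KO and 3484 and 3737 in WT. Its log2 change was -2.11 ± 0.18 in the authors' deposited table (DESeq2 adjusted p = 2.96e-29). Bdh1, which makes beta-hydroxybutyrate, the main circulating ketone body, had 452.6 and 435.1 normalized reads in KO and 559.6 and 1329 in WT. The KO libraries were close together, but WT A lay much nearer to them than WT B did. The log2 change of Bdh1 was -1.09 ± 0.32 in the authors' deposited table (DESeq2 adjusted p = 0.00223), and -0.33 in limma without WT B (adjusted p = 0.0945).

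**Figure D2:**
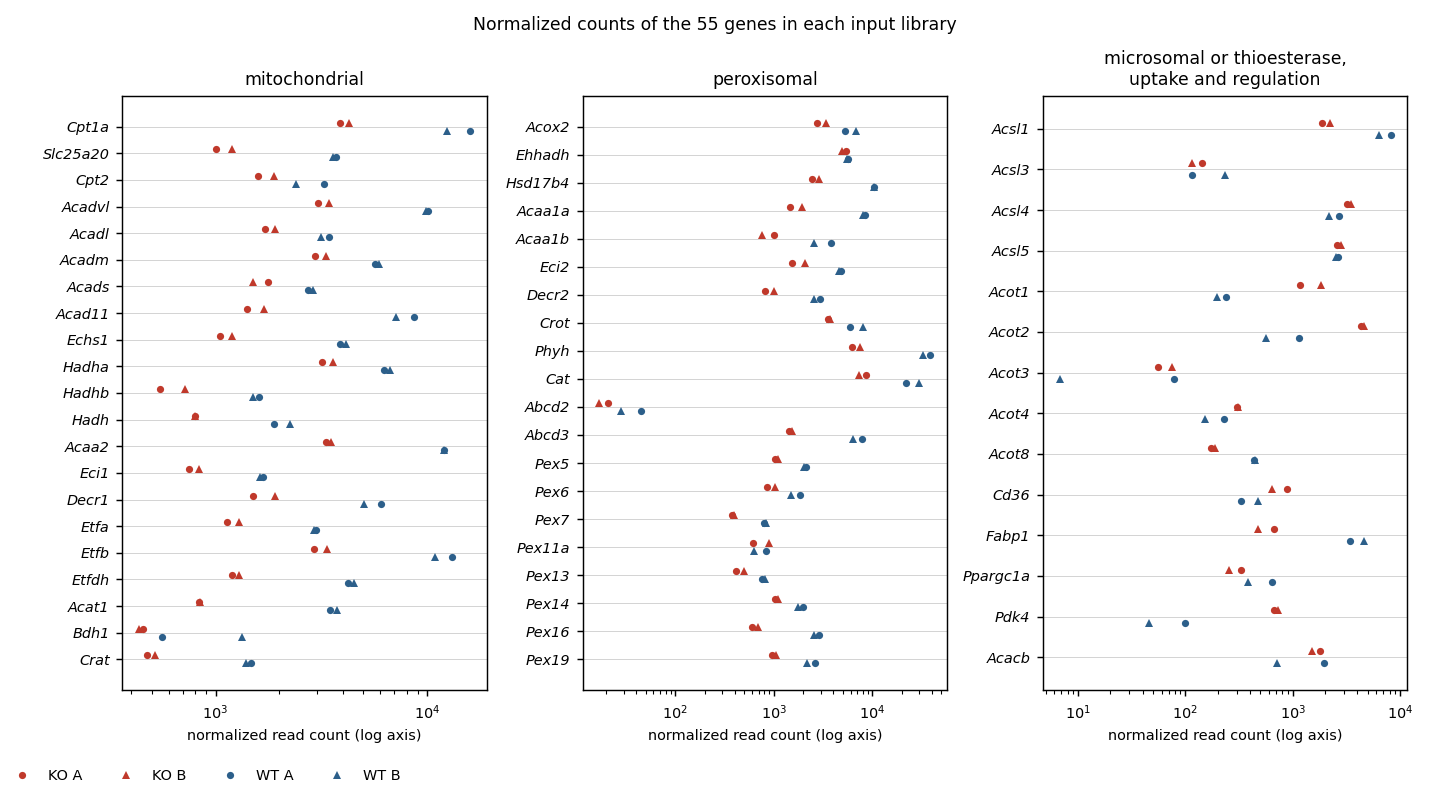
Normalized read count (log axis) of each of the 55 genes in the 4 input libraries, KO in red above WT in blue in each row. Both KO libraries lie left of both WT libraries for all 21 mitochondrial genes and 19 of 20 peroxisomal genes. The same order held for 37% of all genes and for 70.4% of genes with a mean of at least 1000. The WT libraries stand far apart for Bdh1, Acot3 and Acacb.

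Among peroxisomal members the median log2 change in the authors' deposited table was -1.86 for the 5 genes of beta-oxidation and -0.88 for the 8 peroxins, a difference that was not tested. Phyh, which starts the alpha-oxidation of the branched phytanic acid, had 6140 and 7572 normalized reads in KO and 38814 and 32903 in WT. With a KO mean at 19.1% of the WT mean, its log2 change was -2.39 ± 0.19 in the authors' deposited table (DESeq2 adjusted p = 1.36e-34). Abcd3, which carries long and branched acyl-CoA into peroxisomes, had 1421 and 1528 normalized reads in KO and 7826 and 6337 in WT, a log2 change of -2.26 ± 0.19 in the authors' deposited table (DESeq2 adjusted p = 2.92e-31). Neither gene had libraries that overlapped between genotypes. Hsd17b4, the bifunctional protein for branched and very long chains, had 2422 and 2873 normalized reads in KO and 10366 and 10282 in WT, a log2 change of -1.96 ± 0.18 in the authors' deposited table (DESeq2 adjusted p = 4.78e-26).

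The peroxisomal thiolases come as near copies, Acaa1a and Acaa1b, whose reads cannot be told apart with certainty. Acaa1a had 1460 and 1917 normalized reads in KO and 8505 and 8084 in WT, and Acaa1b had 1003 and 758.0 in KO and 3810 and 2582 in WT. Their log2 changes were -2.30 ± 0.19 and -1.86 ± 0.23 in the authors' deposited table (DESeq2 adjusted p = 2.31e-30 and 3.26e-14). Cat, the catalase that removes hydrogen peroxide, had 8557 and 7324 normalized reads in KO and 21710 and 29393 in WT, a log2 change of -1.69 ± 0.20 in the authors' deposited table (DESeq2 adjusted p = 9.14e-16). Decr2, the peroxisomal reductase for unsaturated chains, had 819.2 and 1008 normalized reads in KO and 2912 and 2579 in WT, a log2 change of -1.59 ± 0.20 in the authors' deposited table (DESeq2 adjusted p = 2.42e-14). All of these lay in the same order, KO below WT in every pair of libraries. The isomerase Eci2 had a log2 change of -1.36, Acox2, the oxidase of branched chains and bile acid precursors, -0.97, and Crot, which makes medium-chain carnitine esters for export, -0.93, each in the authors' deposited table.

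Of the 8 peroxins 7 fell, and Pex16 stood apart from the other six that did so. Pex16, which helps to build the peroxisomal membrane, had 603.3 and 689.1 normalized reads in KO and 2903 and 2528 in WT, a log2 change of -2.07 ± 0.20 in the authors' deposited table (DESeq2 adjusted p = 1.24e-24). Its membrane partner Pex19 had -1.27 there. The import receptors Pex5 and Pex7 had log2 changes of -0.95 and -1.07 in the authors' deposited table. Pex13 and Pex14, which dock these receptors, and Pex6, part of the motor that recycles Pex5, had log2 changes of -0.79, -0.80 and -0.82 in the authors' deposited table, which turned to 0.03, 0.03 and 0.0061 with total-count scaling. Over the 8 peroxins total-count scaling gave a median of -0.06 and called 2 lower and 1 higher. The direction of 3 of the 7 that fell thus depended on the scaling, and Pex16 stood at -1.25 in that fit.

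Peroxisomal members that did not pass the test were Ehhadh, Abcd2 and Pex11a. Ehhadh, the other bifunctional enzyme of peroxisomal beta-oxidation and a classic target of PPARA, had 5396 and 4964 normalized reads in KO and 5712 and 5574 in WT. The groups did not overlap, but the log2 change was -0.12 ± 0.17 in the authors' deposited table (DESeq2 adjusted p = 0.608), and with total-count scaling it turned to 0.70 (limma adjusted p = 0.00483). Abcd2, a transporter of very long acyl-CoA, was low, with 20.7 and 17.0 normalized reads in KO and 45.3 and 28.3 in WT (log2 change -0.97 ± 0.65 in the authors' deposited table, DESeq2 adjusted p = 0.234). Pex11a, which acts in the division of peroxisomes and is induced by PPARA ligands in rodents, had overlapping libraries and a log2 change of 0.05 ± 0.25 in the authors' deposited table (DESeq2 adjusted p = 0.904).

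Acyl-CoA synthetases, which activate fatty acids, moved in different ways. Acsl1, the main liver form, had 1854 and 2225.5 normalized reads in KO and 8180 and 6414 in WT, a log2 change of -1.84 ± 0.20 in the authors' deposited table (DESeq2 adjusted p = 6.74e-19). Acsl4, which prefers arachidonic acid, had 3172 and 3483 in KO and 2678 and 2163 in WT, a log2 change of 0.46 ± 0.19 in the authors' deposited table (DESeq2 adjusted p = 0.0414). Acsl4 thus rose by little, and without WT B it was not called (0.31, limma adjusted p = 0.165). Acsl3, a form found on lipid droplets, had 142.6 and 115.6 normalized reads in KO and 116.4 and 235.7 in WT, which overlapped (log2 change -0.44 ± 0.37 in the authors' deposited table, DESeq2 adjusted p = 0.359). Acsl5 overlapped as well, with a log2 change of 0.05 in the authors' deposited table (DESeq2 adjusted p = 0.843).

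Thioesterases, which release free fatty acids from coenzyme A, held 3 of the 6 rises. Acot1, the cytosolic form, had 1179 and 1824 normalized reads in KO and 240.4 and 195.3 in WT, 6.88-fold more by the means, with a log2 change of 2.78 ± 0.26 in the authors' deposited table (DESeq2 adjusted p = 8.44e-26). Acot2, the mitochondrial form, had 4325 and 4624 in KO and 1145 and 564.3 in WT, a log2 change of 2.39 ± 0.27 in the authors' deposited table (DESeq2 adjusted p = 1.29e-17). Acot4, a peroxisomal form that acts on succinyl-CoA, had 303.6 and 311.0 in KO and 226.4 and 153.5 in WT, a smaller log2 change of 0.69 ± 0.29 in the authors' deposited table (DESeq2 adjusted p = 0.0408). Without WT B the change of Acot4 was 0.44 and not called (limma adjusted p = 0.0546). These genes lie next to each other on chromosome 12, at 83987861 to 83993877 for Acot2, 84009502 to 84017670 for Acot1, 84037254 to 84044723 for Acot4 and 84052144 to 84060400 for Acot3 (RefSeq, GRCm38.p6). They are close copies, so reads may be split between them, and their changes are not independent. Acot3, a peroxisomal form for long chains, had 54.99 and 75.6 normalized reads in KO and 77.6 and 6.73 in WT. The WT libraries of Acot3 enclosed the KO libraries, and the log2 change of 0.61 ± 0.71 in the authors' deposited table did not pass the test (DESeq2 adjusted p = 0.520). Acot8, a peroxisomal thioesterase on chromosome 2 and outside this cluster, went the other way, with 171.3 and 190.3 in KO and 432.4 and 440.4 in WT (log2 change -1.27 ± 0.25 in the authors' deposited table, DESeq2 adjusted p = 3.01e-06).

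Uptake and regulation held both the deepest fall and the largest rise of the 55 genes. Fabp1, the fatty acid binding protein of the hepatocyte cytosol, had 670.2 and 471.6 normalized reads in KO and 3423 and 4581 in WT, a log2 change of -2.81 ± 0.23 in the authors' deposited table (DESeq2 adjusted p = 1.04e-32). The KO mean of Fabp1 was 14.3% of the WT mean. Cd36, a membrane protein of fatty acid uptake, had 878.2 and 640.7 in KO and 326.7 and 479.4 in WT, a log2 change of 0.92 ± 0.26 in the authors' deposited table (DESeq2 adjusted p = 0.0017). Pdk4, the kinase that turns off pyruvate dehydrogenase and so spares glucose, had 669.4 and 733.3 normalized reads in KO and 98.1 and 45.8 in WT. Both KO libraries were far above both WT libraries, and the log2 change of Pdk4 was 3.27 ± 0.31 in the authors' deposited table (DESeq2 adjusted p = 2.76e-24), between 2.82 and 3.91 in limma without each library in turn.

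Ppargc1a, a coactivator of PPARA and of mitochondrial genes, had 330.7 and 256.6 normalized reads in KO and 646.9 and 379.8 in WT. Its log2 change was -0.81 ± 0.29 in the authors' deposited table (DESeq2 adjusted p = 0.015), and it turned to 0.05 with total-count scaling. Without WT A it was -0.38 and no longer called (limma adjusted p = 0.112). Acacb, which makes the malonyl-CoA that blocks Cpt1a, had 1795 and 1497 normalized reads in KO and 1971 and 705.7 in WT. WT A lay above both KO libraries and WT B below them, and the log2 change of 0.30 ± 0.71 in the authors' deposited table did not pass the test (DESeq2 adjusted p = 0.776). It ran between -0.27 without WT B and 1.22 without WT A in limma. The WT libraries were at least 2-fold apart for 6 members, Bdh1, Acsl3, Acot2, Acot3, Pdk4 and Acacb, and the KO libraries for 0. Over all 14178 genes tested with recovered counts these numbers were 1589 and 849.

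In wider lists, other genes of these pathways were called lower more often than higher. Over all genes tested 22.2% were lower and 20.4% higher, and among genes with a mean of at least 1000, 58.4% and 11%. Of 30 other tested genes of mitochondrial oxidation and ketogenesis 22 fell and 1, the thioesterase Acot9, rose, with a median log2 change of -1.26 in the authors' deposited table. Acsm3 and Acsm1, which activate medium chains, had -3.16 and -2.76, Acsf2, another acyl-CoA synthetase, -1.79, and Sirt3, the mitochondrial deacetylase, -1.91, in the authors' deposited table. Among 34 other tested genes of peroxisomal oxidation and lipid enzymes 25 fell and 3 rose, and their median was -1.42 in the authors' deposited table. Those with the smallest adjusted p were Slc27a2 (-3.16), which activates very long chains, Ephx2 (-3.07), an epoxide hydrolase, Uox (-2.87), the urate oxidase, and Pipox (-2.47), the pipecolate oxidase, in the authors' deposited table. The 3 that rose were Acot5 and Acot6, with log2 changes of 3.88 and 3.58 in the authors' deposited table, and Far1, which makes fatty alcohols for ether lipids (1.39). WT A and WT B were near the floor, at 9.70 and 5.39 normalized reads for Acot5 and 7.55 and 4.04 for Acot6. Both genes lie on chromosome 12, as Acot1 to Acot4 do, and whether their rises are independent was not tested.

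Of 18 other tested genes of peroxisome biogenesis and membrane 11 fell and 0 rose, with a median log2 change of -0.90 in the authors' deposited table. Pxmp2, a channel of the peroxisomal membrane, had -3.63, Pex11g, which acts in peroxisome division, -2.46, and Acbd4 and Acbd5, which tether peroxisomes to the endoplasmic reticulum, -1.96 and -1.57, in the authors' deposited table. Among 13 genes of microsomal omega-oxidation, which attacks the far end of the chain, 12 fell, and their median was -1.39 in the authors' deposited table. The fatty acid hydroxylases Cyp4a10, Cyp4a32 and Cyp4a12a had -3.35, -2.99 and -2.20 in the authors' deposited table, and Cyp4v3 -1.39. The Cyp4a genes of this list all lie on chromosome 4, and whether their changes are independent was not tested. Cyp4a14 alone did not pass the test (-0.08 in the authors' deposited table, DESeq2 adjusted p = 0.825). Of 22 tested genes of PPARA, its partners and other targets 11 fell (50%) and 3 rose, and their median was -0.72 in the authors' deposited table. Ppara itself had 505.2 and 510.7 normalized reads in KO and 3352 and 2478 in WT, a log2 change of -2.52 ± 0.21 in the authors' deposited table (DESeq2 adjusted p = 3.00e-31). Its partner Rxra had -1.18 and Creb3l3, a transcription factor of fasting, -1.63, in the authors' deposited table. Under total-count scaling the counts of lower and higher genes became 14 and 5, 19 and 8, 6 and 5, 6 and 1, and 3 and 10 for these 5 lists in the order given. In that fit 7.93% of all genes were lower and 58.3% higher.

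Peaks of m6A were listed once per genotype, with an enrichment that is the authors' own ratio per peak, so no spread between libraries can be given. Of the 55 genes 46 had a peak in the KO list and 37 in the WT list, 36 of them in both. All genes tested had a KO peak in 41.1% and a WT peak in 21.0% of cases, but peaks are found more often in abundant mRNA. Among genes with a mean of at least 1000 the shares were 90.2% and 70.0%, against 92.7% and 85.4% of the 41 members at that level. Members with a peak in the KO list alone were Hadha, Hadhb, Bdh1, Crat, Pex7, Acsl4, Acot1, Cd36, Pdk4 and Acacb, and Acat1 had one in the WT list alone. These 10 are 18.2% of the members, where 22.0% of all genes tested had peaks in the KO list alone. Decr1, Acaa1b, Abcd2, Pex13, Acsl3, Acot3, Acot4 and Ppargc1a had none in either list. Of the 6 members that rose, 4 (Acsl4, Acot1, Cd36 and Pdk4) had peaks in the KO list alone. Of these only Acsl4 has a mean of at least 1000, where 40.0% of 240 genes that rose had peaks in the KO list alone. Of the 42 that fell, 5 did so (11.9%), against 14.9% of genes that fell at a mean of at least 1000.

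**Figure D3:**
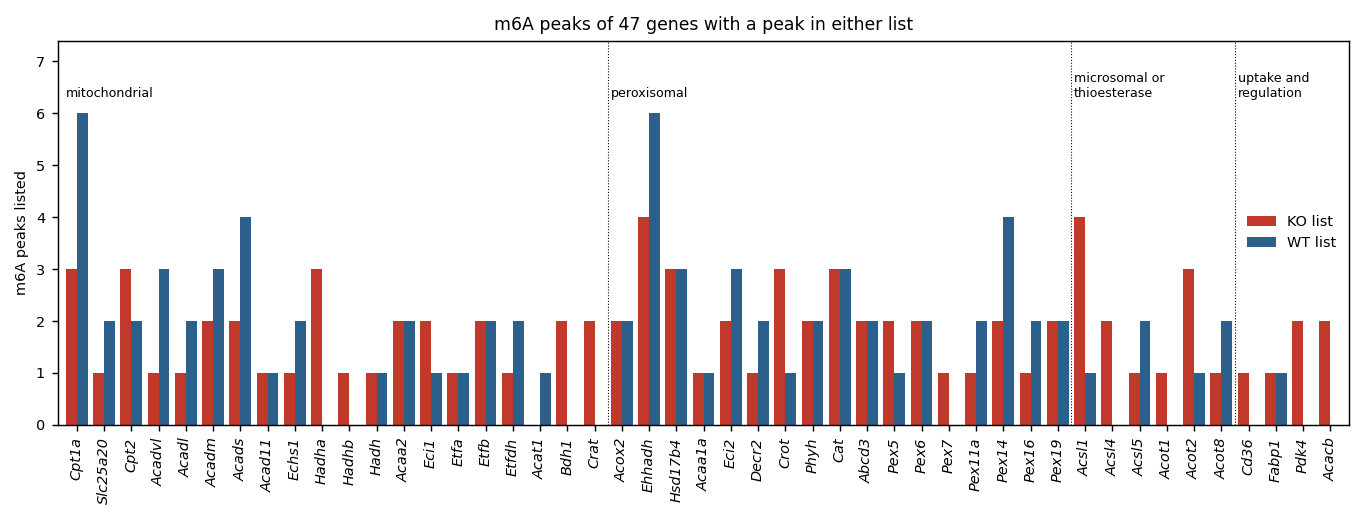
Number of m6A peaks listed for each of the 47 genes with a peak in either list, KO list in red left of WT list in blue. Cpt1a and Ehhadh have 6 peaks in the WT list, and 10 genes have peaks in the KO list alone.

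The KO list held 84 peaks of the 55 genes and the WT list 80. Of the WT peaks 59 overlapped a KO peak by at least 1 base on the same strand (73.8%, against 72.6% of all WT peaks), and 45 of the KO peaks overlapped a WT peak (53.6%, against 27.3% of all KO peaks). In genes that fell at a mean of at least 1000, 52.5% of KO peaks did so. The share was 59.7% in members that fell, whatever their mean, and 58.9% in members with a mean of at least 1000. KO peaks of the 55 genes covered 14655 bases, on average 174 per peak, and WT peaks 7895 bases, on average 98.7 per peak. Lists called separately differ in how much they cover, so these totals compare the lists and not the amount of m6A. The median enrichment of the members' peaks was 11.7 in the KO list and 9.36 in the WT list, where all peaks had 13.1 and 24.2 and peaks of genes that fell at a mean of at least 1000 had 8.72 and 12.7. For the peaks of members that fell it was 13.4 in the KO list and 9.96 in the WT list.

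Cpt1a shows how peaks were split. In the KO list it had 3 peaks, one of which covered 544 bases at chr19:3383756-3384300 (mm10, enrichment 14.5). The WT list had 6, among them chr19:3384053-3384201 inside that block (enrichment 46.3). The WT peak of Acat1 lay at chr9:53580720-53580769, 198 bases from the gene end in RefSeq, with an enrichment of 156. Pdk4, the gene with the largest rise, had KO peaks at chr6:5485126-5485175 and chr6:5485225-5485422 with enrichments of 4.70 and 25.1, 11103 and 10856 bases from the gene start. Acot1 had a single KO peak at chr12:84009745-84009794, 243 bases from its start, with an enrichment of 4.73. Fabp1 had a peak from the same base, 9 bases after its start, in the KO list (chr6:71199888-71201698) and in the WT list (chr6:71199888-71201747), with enrichments of 6.29 and 5.94.

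Within 100 bases of the RefSeq start lay 34 of 84 member peaks in the KO list (40.5%) and 27 of 80 in the WT list (33.8%), against 23.7% of all KO peaks and 21.0% of all WT peaks that could be placed. In genes that fell at a mean of at least 1000 the shares were 33.5% in the KO list and 26.2% in the WT list. Members that fell, whatever their mean, had 47.8% and 34.8%, and members with a mean of at least 1000 had 42.5% and 34.2%. The window was chosen after the peaks were seen, and with 50 bases the shares were 33.3% in KO and 25% in WT, against 16.1% and 13.8% of all peaks. Peaks at the start of the members had a median enrichment of 20.5 in the KO list and 25.6 in the WT list, and their other peaks 5.60 and 7.99. The same order held in genes that fell at a mean of at least 1000, with 16.4 in the KO list and 25.2 in the WT list at the start and 6.46 and 10.1 elsewhere. As background, antibodies to m6A also bind a doubly methylated adenosine beside the cap, and the peak lists do not separate the marks.

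**Figure D4:**
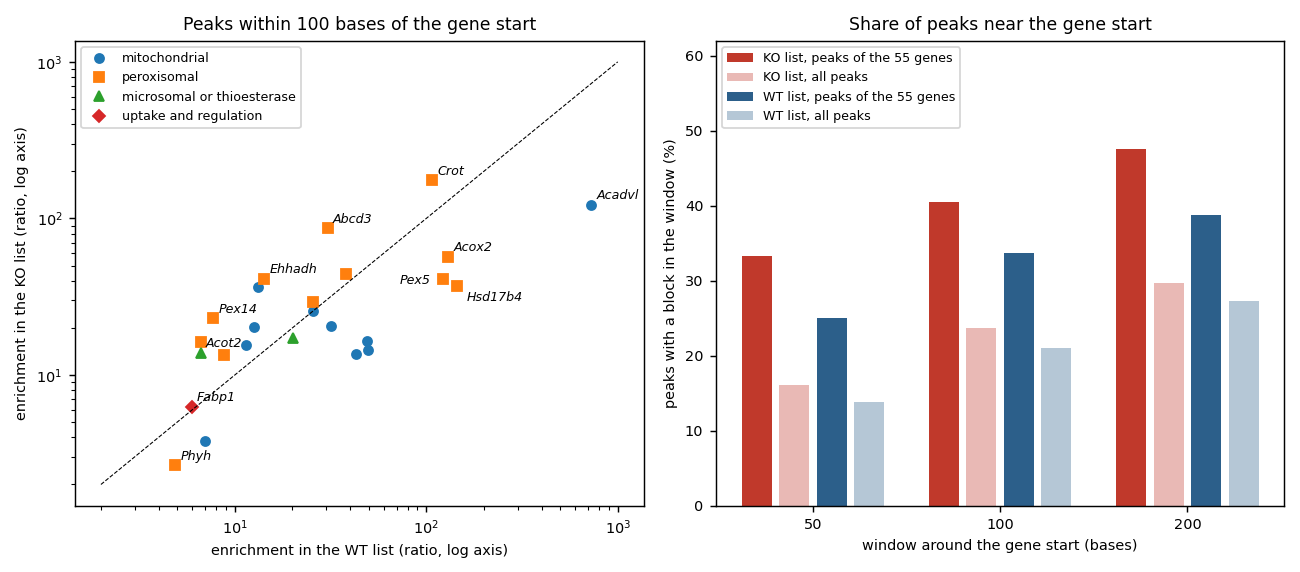
Left, enrichment of peaks within 100 bases of the gene start for the 25 members with one in both lists, KO list on the y axis and WT list on the x axis (log axes, dashed line at equality), with 2.64 in KO and 4.88 in WT for Phyh, 122 and 724 for Acadvl, and 175 and 107 for Crot. Right, percent of peaks near the gene start by window, where the share of the members is above that of all peaks of the same list at each of the 3 windows.

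In the 25 members with a peak at the start in both lists, the enrichments did not move one way. Acadvl had the highest start peak of the WT list, with enrichments of 122 in the KO list and 724 in the WT list. Hsd17b4 had 36.9 in KO and 146 in WT, Pex5 41.1 and 122, and Acox2 56.9 and 130. The other order held for Crot, with 175 in KO and 107 in WT, and for Abcd3, with 86.4 and 30.5. The lists differ in median enrichment (13.1 over all KO peaks, 24.2 over all WT peaks), so raw values do not compare a peak between genotypes. By percentile within its list, Acadvl stood at 98.5 in KO and 98.8 in WT, Pex5 at 86.5 and 87.6, and Hsd17b4 at 84.5 and 90.3. Acox2 stood at 92.3 and 88.8, Crot at 99.3 and 85.2, and Abcd3 at 96.8 and 56.5. The first transcribed bases were also searched for GGAC, a core of the m6A consensus. The first 50 transcribed bases of 15 of 48 members (31.3%) held it, against 21.6% of all genes and 24.2% of the genes tested. Among 7 members with a peak from the start base of a searched promoter, 2 held a GGAC in those bases and 5 did not. The 2 were Crot, with the start peak in both lists, and Pex7. Other start peaks, among them those of Acaa2 and Pex19 at the RefSeq start, were not part of this count. In Pex7, the receptor that imports Phyh and the peroxisomal thiolases, a start peak with an enrichment of 47.5 stood in the KO list alone and covers a GGAC. It is shown in capitals, within bases 1 to 30 of Pex7 (chr10:19907645-19907674, minus strand), counted from the RefSeq start (GRCm38.p6).
Pex7: cccggccttcctGGACtttcagtgagccgc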

How the data were processed

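The members and gene lists were chosen with earlier results of these data known. Per the submitters' processing notes, HISAT2 2.1.0, DESeq2 1.18.1 and mm10 were used; the sources used here name no read counter and no peak caller. In the table deposited by the authors, the mean per gene is a signal (counts divided by size factors, averaged over 4 input libraries), the fold change and its SE are in log2 units, the Wald statistic is a score, and p-values are as deposited. In the deposited peak lists, enrichment is a ratio, with 1 p-value per peak, and the genotype of each list is taken from its name.

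The digits of each deposited mean were used to find the whole counts behind it in the 4 libraries, for 16020 of 16133 genes (99.3%) and all 55 members, using the fold change as a guide above a mean of 100. On simulated libraries 730 of 730 genes were correct. These were drawn from recovered genes with a fixed dispersion, so they say nothing of genes that are harder to recover. Refitted log2 changes of 1333 genes found without the fold change differed from the deposited ones by at most 0.00717. The pair of libraries in the numerator was taken as KO; which replicate number a library carries is not known.

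Called means a deposited adjusted p under 0.05. limma 3.58.1 with a trend (R 4.3.3), on log2(normalized count + 1) of 14178 genes, served for the alternatives: pseudocounts of 0.5 and 5, total-count scaling, and each library left out. It was run on simulated data with a fixed dispersion and far fewer changed genes than were called here, so that run does not cover this setting. Peak coordinates were read as 1-based, since starts coincide with RefSeq starts. Members with values in every library were the called ones in order of adjusted p, up to 8 mitochondrial, 8 peroxisomal, 6 microsomal or thioesterase and 5 of uptake and regulation, with up to 2 uncalled of each, and up to 4 called genes per wider list; others named so were named after their values were seen. Some items are not reported here.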

Additional observations from a re-analysis of the deposited data

How the results depend on the processing

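No paired analysis was possible because the recovered libraries carry no replicate number. Of the 42 members lower and 6 higher, 27 and 10 were so with total-count scaling, where 35 of 55 members kept direction and side of the threshold, and 3 were higher when at least 2-fold was also required. Leaving out each library, limma called 0 to 42 members lower and 0 to 8 higher, with 0 without KO A or KO B, where a lone KO library is assumed to vary like the WT libraries. All 48 called members kept their sign in those 4 fits. For the wider lists total-count scaling gave 14 lower and 5 higher (mitochondrial), 8 higher (peroxisomal), 6 lower and 5 higher (biogenesis), 6 lower and 1 higher (omega-oxidation), and 3 lower and 10 higher (PPARA). Over all genes it gave 7.93% lower and 58.3% higher. Group medians with total-count scaling were -0.71 (mitochondrial), -0.34 (peroxisomal), 1.29 (microsomal or thioesterase) and 1.30 (uptake and regulation). The mitochondrial median was -1.36 without its genes of more than 1 compartment (Acad11 and Crat) and -1.45 with Acot2 counted as mitochondrial. The uptake and regulation median ran from -0.27 (without WT B) to 0.64 (without WT A). Signs turned with total-count scaling for Cpt2 (0.14), Acads (0.037), Ehhadh (0.70), Pex6 (0.0061), Pex13 (0.030), Pex14 (0.028), Acsl3 (0.45) and Ppargc1a (0.054). Leaving out a library, signs turned for Pex11a (-0.23 without KO B, -0.15 without WT B), Acsl3 (0.14 without WT B), Acsl5 (-0.013 without KO B), Acot3 (-0.26 without WT B) and Acacb (-0.27 without WT B). The causes were not tested. With peaks at or above the median enrichment of their list, 20 members had a WT peak, 18 peaks in both lists, and 21 WT peaks were shared. The sources used here give no depth for the antibody libraries, so a missing peak may be one not detectable at that depth.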
